A study of Mus musculus with 2 samples.

Results

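Cholesterol is made from acetyl-CoA through the mevalonate pathway, and 7 genes of that pathway were followed here in the newborn mouse brain. The genes were chosen by name. They were 6 enzymes (Hmgcs1, Idi1, Fdps, Fdft1, Sqle and Dhcr7) and Srebf2, which encodes the transcription factor SREBP2. None of the 7 is itself a receptor or carrier for cholesterol uptake, so uptake genes are described only through a separate list. The 7 genes carry 32 of the 128603 transcripts and are 7 of the 51905 genes in the deposited table. Brains were taken at postnatal day 0 from 2 groups of mice, labelled C57BL/6 and given as C57BL/6J in the methods of the study: wild type (m+/p+), and mice with a maternal knockout of Mir125b-2 (m-/p+). The m-/p+ mice inherited a deletion of the whole pre-miR-125b-2 hairpin from a heterozygous mother and an intact copy from a wild-type father. The deletion is conventional and so is present in every cell. Equal amounts of RNA from 6 brains were pooled into 1 library for each genotype. Every difference below is therefore between 2 libraries, no spread between mice can be given, and no test was run. The labels give whole brain as the tissue, whereas their extraction text speaks of hippocampus and the methods of the study of brain.

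The brain makes nearly all of its own cholesterol, because lipoproteins of the blood do not cross the blood-brain barrier. In every cell type the pathway runs through HMG-CoA and mevalonate to isopentenyl diphosphate, which is built up to farnesyl diphosphate and then to squalene, and squalene is oxidised, cyclised and trimmed to cholesterol. When membrane cholesterol is low, SREBP2 is carried from the endoplasmic reticulum to the Golgi, is cut by proteases there, and switches on the genes of the whole pathway together, which makes these transcripts a common readout of sterol demand. Myelin is the largest user of cholesterol in the older brain, but at birth myelination has hardly begun.

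The microRNA removed by the deletion and the places where its seed pairs with these genes are shown first. In RefSeq (GRCm38.p6), the Mir125b-2 hairpin gives miR-125b-5p, at chr16:77646279-77646300 (+), and miR-125b-2-3p, at chr16:77646318-77646339 (+). The seed, bases 2 to 8, is in capitals.
miR-125b-5p: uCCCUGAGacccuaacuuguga
miR-125b-2-3p: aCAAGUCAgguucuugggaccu
The 5p strand is also encoded by Mir125b-1 at chr9:41581940-41581961 (+), letter for letter the same, so m-/p+ mice keep that source and the paternal Mir125b-2. A library of long RNA does not measure hairpins. Mir125b-2, Mir125b-1 and Mir125a were listed at the floor of 1e-05 FPKM (fragments mapped to a transcript, divided by its length and by the size of the library) in both libraries, which checks nothing about the genotype.

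The 3′UTRs of the 7 genes were searched for the reverse complement of both seeds in the most abundant coding transcript (CTCAGGG for 5p and TGACTTG for 3p). Srebf2 held 2 matches to the 5p seed and 1 to the 3p seed, and Dhcr7 held 1 to the 5p seed. The matches are in capitals, with the surrounding GRCm38 sequence in lower case.
Srebf2, 5p, 3′UTR bases 817 to 823, match at chr15:82204731-82204737 (+): ggccgcctgagCTCAGGGtgggcccatggg
Srebf2, 3p, 3′UTR bases 887 to 893, match at chr15:82204801-82204807 (+): ggtctccagcaTGACTTGtttgctctccct
Srebf2, 5p, 3′UTR bases 1118 to 1124, match at chr15:82205032-82205038 (+): agactgcttggCTCAGGGcttcctgagaga
Dhcr7, 5p, 3′UTR bases 816 to 822, match at chr7:143848330-143848336 (+): ccccccccaaaCTCAGGGtattctgtaaaa
None of these 4 matches is followed by an A. Such matches are common: 14.2% of the 12801 3′UTRs searched in the same way held the 5p match and 13.5% held the 3p match. Among 3′UTRs within 1.2-fold of the length of that of Srebf2 (1465 bases), 16.1% of 1692 held the 5p match and 13.7% the 3p match. For Dhcr7 (896 bases), the 5p share was 10.7% of 1487. These shares count 3′UTRs with at least 1 match. Shares with 2 matches or with matches to both seeds, as in Srebf2, were not computed. Hmgcs1, Fdft1, Sqle, Idi1 and Fdps held no 7-base match in any of their annotated coding transcripts. In their most abundant coding transcript, the 3′UTRs of Hmgcs1 (1607 bases) and Fdft1 (1600 bases) are long, while those of Sqle (278 bases), Idi1 (250 bases) and Fdps (58 bases) are short. A less abundant form of Idi1 has a 3′UTR of 1819 bases, also without a 7-base match but with 1 match to the shorter TCAGGG. The main forms of Dhcr7 and Srebf2 held 2 and 3 matches to TCAGGG, which include the 7-base ones. A match is a description of the reference sequence and not a measured site.

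All 7 genes had nearly the same level in both libraries. Levels are FPKM per Ensembl transcript as estimated by the authors, summed here over the transcripts of a gene. Because FPKM is divided by transcript length, levels can be compared between genes. The comparison is rough for genes with short and long forms, such as Idi1. Hmgcs1 was the most abundant, and in both libraries the order was Hmgcs1, Fdps, Sqle, Fdft1, Srebf2, Idi1 and Dhcr7, an 11.3-fold range of levels. Idi1 and Dhcr7, the last neighbours in this order, lay closer to each other than each lay to its own value in the other library, so these neighbours cannot be ordered. The summed FPKM of the 7 genes was 434.3 in wild type and 428.0 in m-/p+, a ratio of 0.985. Ratios of m-/p+ to wild type ran from 0.938 to 1.05, with 4 genes higher and 3 lower.

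**Figure D1:**
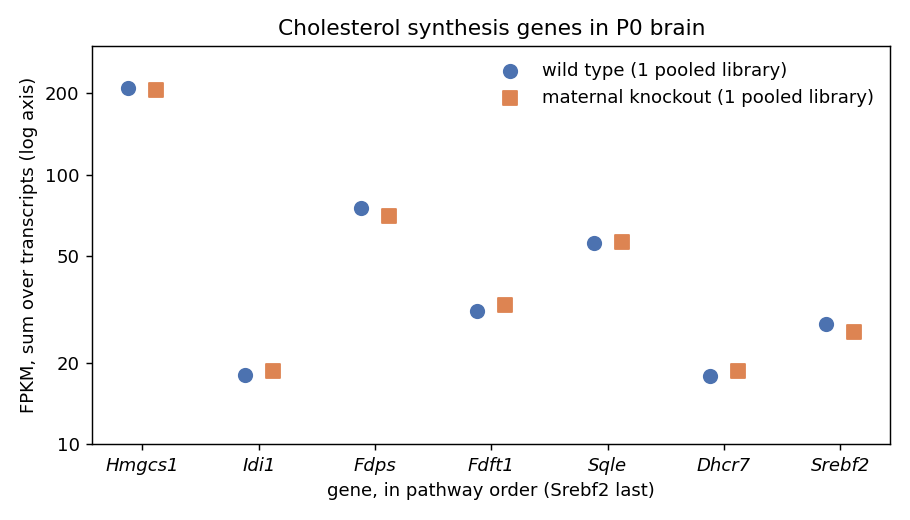
Summed FPKM (log axis) of the 7 genes in the wild-type library (blue circles) and the maternal knockout library (orange squares), 1 pooled library each, so there are no error bars. In each gene the 2 points lie side by side, from 208.6 and 205.1 FPKM in Hmgcs1 down to 17.8 and 18.6 FPKM in Dhcr7.

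The early enzymes stand before farnesyl diphosphate. Hmgcs1 encodes the cytosolic HMG-CoA synthase, which condenses acetoacetyl-CoA with acetyl-CoA, and lies on chr13:119690462-119708086 (+) of GRCm38 (ENSMUSG00000093930). Its level was 208.6 FPKM in wild type and 205.1 FPKM in m-/p+, a log2 ratio of -0.02, all from a single annotated transcript. This level exceeded that of 98.5% of protein-coding genes. Idi1 (ENSMUSG00000058258, chr13:8885501-8892451, +) encodes isopentenyl diphosphate isomerase, which supplies the starter unit of isoprenoid chains. It had 18.1 FPKM in wild type and 18.7 FPKM in m-/p+ (log2 ratio 0.05), and its paralog Idi2 was at the floor in wild type and at 0.0165 FPKM in m-/p+. An antisense gene over its start, AC124732.1, had 0.142 and 0.0800 FPKM. Fdps (ENSMUSG00000059743, chr3:89093588-89101959, -) encodes farnesyl diphosphate synthase, the target of bisphosphonate drugs. Its level was 74.9 FPKM in wild type and 70.3 FPKM in m-/p+, a log2 ratio of -0.09, which was the lowest of the 7. Gm43738, an overlapping gene on the same strand, had 0.117 FPKM in wild type and was at the floor in m-/p+.

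The later enzymes are committed to sterols. Fdft1 (ENSMUSG00000021273, chr14:63145153-63177793, -) encodes squalene synthase, which joins farnesyl units into squalene. It had 31.2 FPKM in wild type and 32.8 FPKM in m-/p+, and its log2 ratio of 0.07 was the highest of the 7. Its last 767 bases overlap Ctsb, a lysosomal protease gene on the opposite strand, which had 29.5 and 30.3 FPKM. The libraries kept the strand, but how the counting used it is not given in the sources used here. Sqle (ENSMUSG00000022351, chr15:59315077-59331192, +) encodes squalene epoxidase, a rate-limiting oxygen-dependent step, and stood at 55.7 FPKM in wild type and 56.3 FPKM in m-/p+ (log2 ratio 0.02). Dhcr7 (ENSMUSG00000058454, chr7:143823145-143848410, +) encodes the reductase that turns 7-dehydrocholesterol into cholesterol and is mutated in Smith-Lemli-Opitz syndrome. It had 17.8 FPKM in wild type and 18.6 FPKM in m-/p+ (log2 ratio 0.06).

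Srebf2 (ENSMUSG00000022463, chr15:82147266-82205376, +) is the regulator of the other 6. Its level was 27.8 FPKM in wild type and 26.1 FPKM in m-/p+, a ratio of 0.938 and a log2 ratio of -0.09, from a single annotated transcript of 5077 bases. Both genes with a 5p seed match were near wild type, with Dhcr7 slightly above and Srebf2 slightly below. Mir33, a microRNA gene inside an intron of Srebf2 (chr15:82198122-82198190), was at the floor in both libraries, as were the other hairpins above. Activity of SREBP2 depends on its cleavage, which these libraries do not measure.

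None of the 7 genes differed by more than 1.2-fold in either direction. Over the 15706 genes with a mean of at least 1 FPKM, 1529 (9.74%) were more than 1.2-fold higher in m-/p+ and 1571 (10%) more than 1.2-fold lower. Low genes spread more than abundant ones, and all 7 genes were above 10 FPKM. Among the 6836 protein-coding genes with a mean of at least 10 FPKM, 165 (2.41%) were higher and 140 (2.05%) lower by that fold, so that a count of 0 among 7 abundant genes is close to the background. The median log2 ratio of the 7 genes was 0.016, against 0.010 over those 6836 genes and 0.004 over all 15706. A pseudocount of 0.1 FPKM was added to both sums before the log2 ratio. Each of the 7 log2 ratios lay between percentiles 5 and 95 of the protein-coding genes within 1.5-fold of its level. For Fdps, 77.6% of the 817 protein-coding genes within 1.5-fold of its level had a smaller change in either direction, and their log2 ratios ran from -0.13 to 0.15 between percentiles 5 and 95. For Srebf2 it was 62.2% of 2717 genes, and for Sqle, the gene with the smallest change, 15.0% of 1189 genes. In bulk RNA, fewer cells that express a gene and less RNA per cell cannot be told apart.

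**Figure D2:**
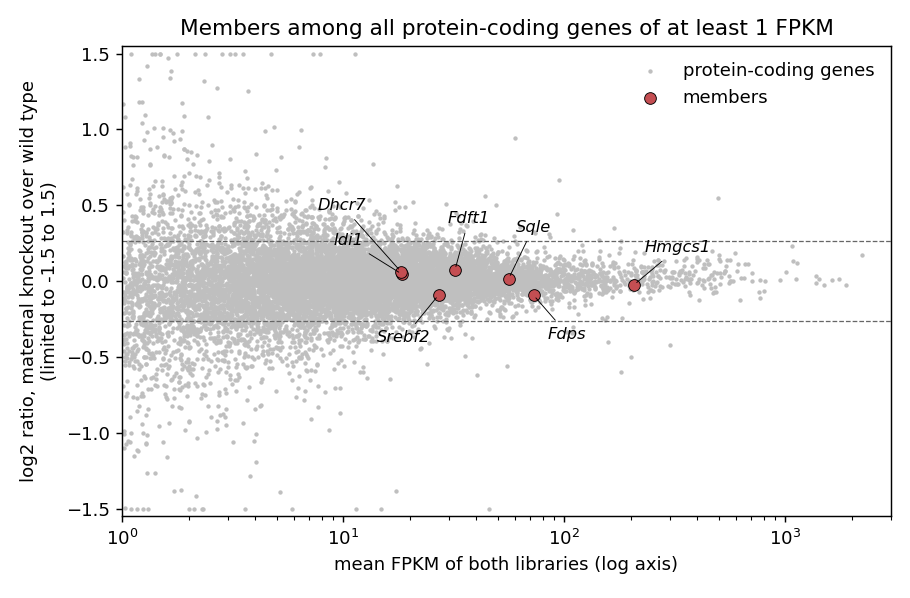
Log2 ratio of summed FPKM, maternal knockout over wild type (vertical axis, limited to -1.5 to 1.5), against the mean FPKM of both libraries (log axis) for protein-coding genes of at least 1 FPKM (grey) and the 7 cholesterol synthesis genes (red, called members). Dashed lines mark 1.2-fold in either direction, and all 7 genes lie between them, with log2 ratios from -0.09 to 0.07.

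Totals of the 2 libraries were close. FPKM summed to 1736520 in wild type and 1748660 in m-/p+, and 50321 and 50108 transcripts had more than 0.3 FPKM. FPKM is already divided by library size, so close sums do not show that the libraries were alike. The number of fragments was not used here, so the depth is unknown. Neuronal markers had a median log2 ratio of 0.01 (4 of 5 higher in m-/p+) and sums of 1628 FPKM in wild type and 1640 FPKM in m-/p+. All 6 markers of astrocytes and radial glia were lower in m-/p+, with a median log2 ratio of -0.05 and a summed level of 752.1 and 740.6 FPKM. All 4 endothelial markers were also lower, with a median of -0.18 and sums of 79.2 and 70.4 FPKM. Single genes of at least 1 FPKM ran from -0.42 to 0.41 between percentiles 5 and 95 of the log2 ratio. Of the 8 oligodendrocyte lineage markers, 7 passed the minimum of 1 FPKM, with a median of -0.07 and sums of 103.5 and 102.2 FPKM, and the myelin gene Mog was near 0 (0.0523 and 0.0287 FPKM). Microglial markers had a median of -0.10 and sums of 14.5 and 13.6 FPKM. Choroid plexus markers had a median of -0.14, but their sum was higher in m-/p+ (533.3 and 569.0 FPKM), nearly all of it Ttr (519.7 and 557.2 FPKM). For red blood cells the median was 0.02 and the sums 499.4 and 496.7 FPKM, and for dorsal telencephalon and hippocampus 0.03 with 140.5 and 141.8 FPKM. The part of these cell types in the values above was not tested. Markers of regions outside the telencephalon were present in both libraries (6 of 7 passed), with sums of 25.7 and 23.6 FPKM, a ratio of 0.919, a median log2 ratio of -0.02 and a range of log2 ratios from -0.63 to 0.22. None of the 3 liver markers passed (sums of 0.4005 and 0.839 FPKM).

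Single transcripts moved more than the gene sums, and in Idi1 they moved in opposite directions. A transcript was counted as increased with more than 0.3 FPKM in wild type and a ratio above 2, and as decreased with a ratio below 0.5. Of the 32 transcripts, 20 had more than 0.3 FPKM in wild type, of which 1 was increased and 2 were decreased. Over all 50321 transcripts with that level, 4.16% were increased and 13.6% decreased, so the counts among the 20 are near the background. Of the 32, 5 were at the floor in both libraries and 7 in 1 of them, and the 2 decreased transcripts are among those 7. Over all transcripts, 2840 of the 6842 decreased ones were likewise at the floor in m-/p+. Hmgcs1, Fdft1 and Srebf2 each have a single annotated transcript, and their isoforms cannot be compared here.

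Idi1 is expressed from 4 transcripts, of which 3 are annotated as coding. The short coding form ENSMUST00000177397 (737 bases) had 11.1 FPKM in wild type and 8.98 FPKM in m-/p+, a ratio of 0.811, and its share of the gene sum was 61.2% and 48.1%. The other 3 were all higher in m-/p+. The longest form, ENSMUST00000169314 (3027 bases, with a 3′UTR of 1819 bases), had 5.27 FPKM in wild type and 6.33 FPKM in m-/p+, a ratio of 1.2. ENSMUST00000177400 (581 bases, coding) was the increased transcript, with 1.12 FPKM in wild type and 2.40 FPKM in m-/p+, a ratio of 2.13. The retained intron form ENSMUST00000176851 had 0.621 and 0.983 FPKM. Shifts of this size were not rare between these libraries. In genes with several transcripts, 16.1% of the 4193 transcripts within 1.5-fold of the level of ENSMUST00000177397 changed by more than it did, and for ENSMUST00000177400 it was 11.6% of 10340 transcripts. Among those that were also of similar length, the shares were 31.8% of 606 and 17.7% of 3369. These annotated forms overlap, and the FPKM of short forms depend on how fragments are divided among them. Weighted by transcript length, as a measure of the fragments, the short form ENSMUST00000177397 held 32.3% of Idi1 in wild type and 23.7% in m-/p+, and the longest form held 63.2% and 68.6%. The ratio for the whole gene was 1.11 on that scale, compared with 1.03 for the sum of FPKM.

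Fdps was carried by 1 transcript in both libraries. ENSMUST00000081848 (1237 bases, coding) had 66.0 FPKM in wild type and 60.6 FPKM in m-/p+, or 88.1% and 86.2% of the gene, and it carried the lower sum. The retained intron form ENSMUST00000198239 was lower too (4.05 and 3.26 FPKM). The coding forms ENSMUST00000196921 and ENSMUST00000196709 were higher in m-/p+, with ratios of 1.22 and 1.26. ENSMUST00000199668 was at the floor in wild type and had 0.639 FPKM in m-/p+, and no fold is given against the floor. In Sqle, the main coding form ENSMUST00000022977 had 53.5 FPKM in wild type and 53.6 FPKM in m-/p+, and made up 96.0% and 95.04% of the gene. Its retained intron forms had 1.31 and 1.30 FPKM (ENSMUST00000162142) and 0.909 and 1.24 FPKM (ENSMUST00000161953).

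Dhcr7 has 13 annotated transcripts, and all but the main one were below 1 FPKM. The main coding form ENSMUST00000124340, which carries the 3′UTR match printed above, had 15.6 FPKM in wild type and 16.2 FPKM in m-/p+, a ratio of 1.04, and its share of the gene was 87.5% and 87.2%. Both decreased transcripts among the 32 were minor forms of Dhcr7 at the floor in m-/p+: the retained intron form ENSMUST00000128610 with 0.573 FPKM in wild type and the coding form ENSMUST00000143338 with 0.443 FPKM. The reverse was seen as well. ENSMUST00000145471, annotated for nonsense-mediated decay, was at the floor in wild type and at 0.574 FPKM in m-/p+, and the coding form ENSMUST00000073878 had 0.0475 FPKM in wild type and 0.512 FPKM in m-/p+, below the minimum in wild type and therefore not counted. ENSMUST00000207143, coding with a shorter 3′UTR of 143 bases that lacks the match, had 0.467 and 0.906 FPKM, and 30.4% of transcripts of similar level changed by more.

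**Figure D3:**
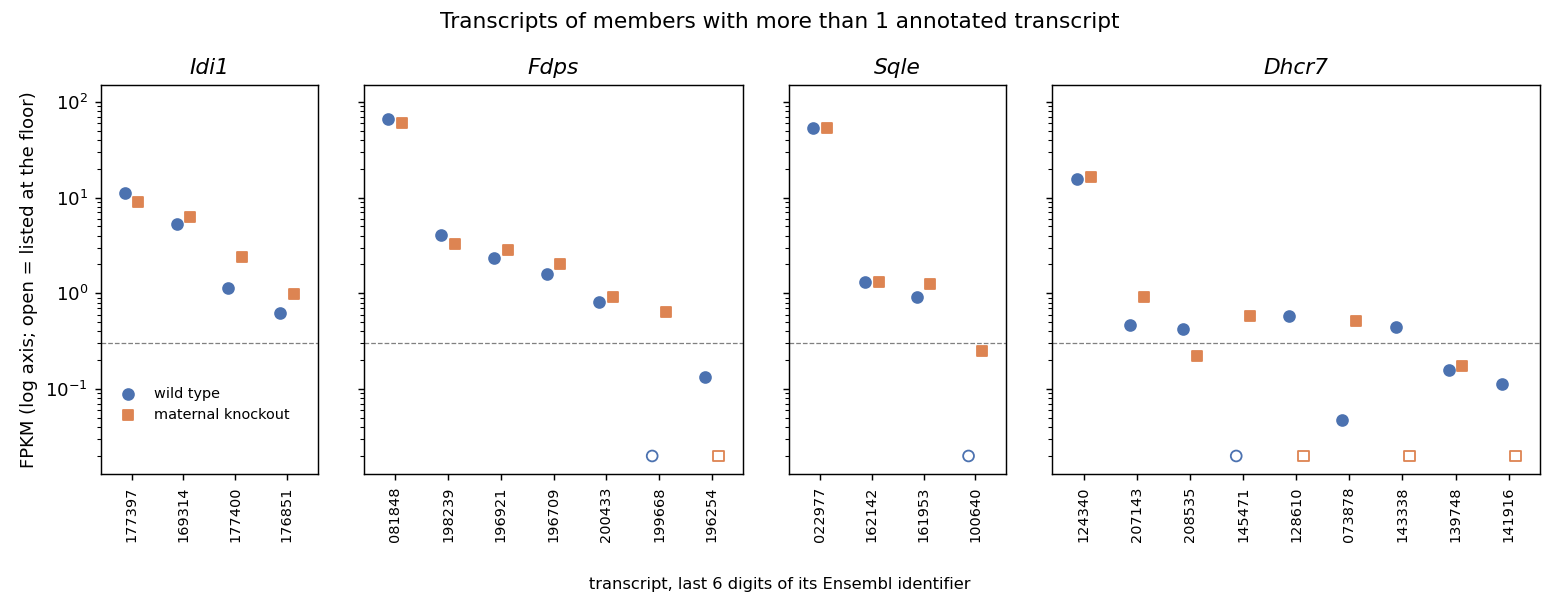
FPKM (log axis) of each transcript above the floor in at least 1 library, in the 4 genes with several annotated transcripts, for wild type (blue circles) and maternal knockout (orange squares). Open symbols at the bottom are values at the floor, the dashed line is 0.3 FPKM, and the most abundant transcript lies close in both libraries in Fdps, Sqle and Dhcr7 but is lower in the knockout in Idi1 (11.1 and 8.98 FPKM). Several Dhcr7 forms near the line stand at the floor in 1 library.

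Another 6 lists held other genes of the sterol pathway, and also fatty acid synthesis genes and other users of farnesyl and geranylgeranyl diphosphate. Over the 59 genes of these lists that passed, log2 ratios ran from -0.37 to 0.25, around a median of -0.003. The genes at both ends, Soat1 and Hsd17b7, were below 10 FPKM in both libraries. With more genes and lower levels, this range cannot be compared with that of the 7. All 15 other synthesis enzymes passed the minimum, 6 were higher in m-/p+ and 9 lower, and the median log2 ratio was -0.01. None differed by more than 1.2-fold. The highest was Hsd17b7, a ketoreductase of sterol demethylation, with 6.89 FPKM in wild type and 8.23 FPKM in m-/p+ (log2 ratio 0.25), followed by Mvd, mevalonate diphosphate decarboxylase, with 19.9 and 22.6 FPKM (0.18). The lowest was Lss, lanosterol synthase, which closes the sterol rings, with 24.8 and 21.9 FPKM (-0.18), and next to it Nsdhl, a sterol dehydrogenase of the demethylation complex, with 12.8 and 11.5 FPKM (-0.15). Together with the 6 enzymes above, 10 of 21 synthesis enzymes were higher and 11 lower. The 21 include the synthase of geranylgeranyl diphosphate, which is not itself a step towards cholesterol.

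Genes of sterol sensing and SREBP processing, counted with Srebf1 itself, numbered 6. All 6 passed, 4 were higher and 2 lower, none by more than 1.2-fold, and the median log2 ratio was 0.05. Insig2, which holds the SREBP complex in the endoplasmic reticulum when sterols are plentiful, had 14.2 FPKM in wild type and 12.7 FPKM in m-/p+ (log2 ratio -0.16). The proteases that cut SREBP in the Golgi were Mbtps1, with 25.6 and 24.0 FPKM (-0.09), and Mbtps2, with 13.3 and 14.3 FPKM (0.11). Srebf1, the related factor that mainly drives fatty acid synthesis, had 17.1 and 17.9 FPKM (0.06).

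Genes of uptake and intracellular traffic numbered 13, all of which passed, with 6 higher, 7 lower, none more than 1.2-fold apart and a median log2 ratio of -0.01. The endocytic receptors Lrp1 and Vldlr were the highest, with 44.5 and 48.4 FPKM (log2 ratio 0.12) and with 19.2 and 20.8 FPKM (0.11), respectively. The lowest were Mylip, a ubiquitin ligase that marks lipoprotein receptors for degradation, with 4.10 and 3.42 FPKM (-0.25), and Scarb1, a receptor for high-density lipoprotein, with 10.8 and 9.14 FPKM (-0.23). In the list of efflux, storage and turnover, 8 of 10 genes passed, and 2 of them were more than 1.2-fold lower in m-/p+. That fold was passed downwards by 10% of all genes of at least 1 FPKM. Among protein-coding genes of at least 10 FPKM, a level that of these 2 only Nr1h2 reached, it was 2.05%. Soat1, which esterifies cholesterol for storage, had 8.10 FPKM in wild type and 6.23 FPKM in m-/p+ (log2 ratio -0.37), and Nr1h2, the oxysterol receptor LXR beta, had 14.9 and 11.96 FPKM (-0.32). The highest were Cyp46a1, the neuronal enzyme that hydroxylates cholesterol for export from the brain, with 9.60 and 10.8 FPKM (0.16), and Lcat, which esterifies cholesterol on lipoproteins, with 1.96 and 2.11 FPKM (0.10). This list split evenly, with 4 higher and 4 lower and a median log2 ratio of 0.004.

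**Figure D4:**
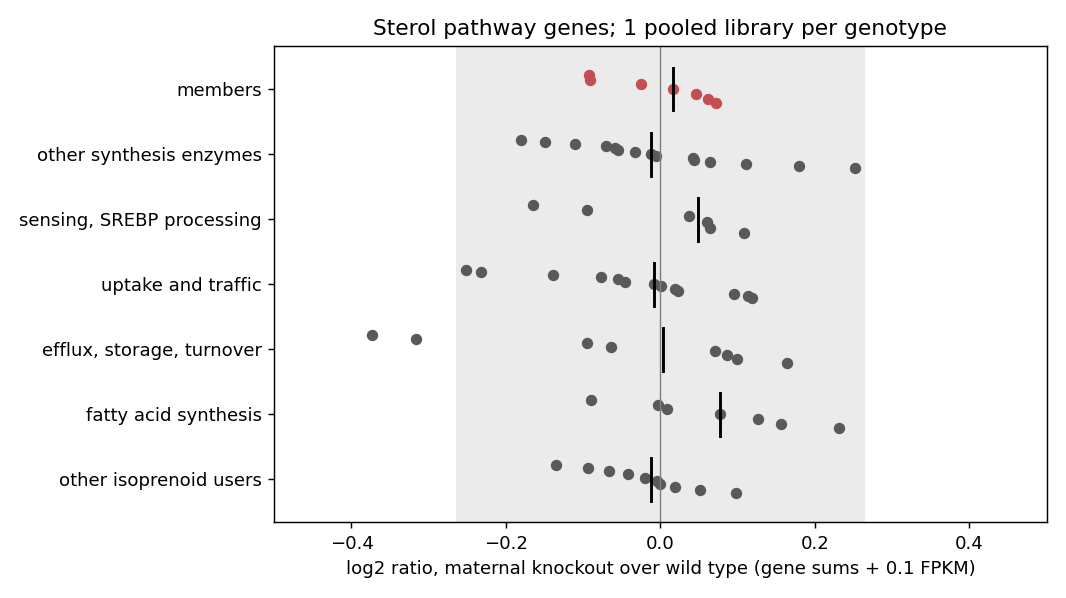
Log2 ratio of summed FPKM, maternal knockout over wild type, for the 7 genes (red, called members) and 6 related lists (grey), 1 point per gene with at least 1 FPKM on average and a black line at each list's median. The shaded band is 1.2-fold in either direction, and 2 genes, Soat1 and Nr1h2 in the list of efflux, storage and turnover, lie outside it.

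The promoters were read because genes that SREBP2 drives share short elements near their start. RefSeq promoter windows (GRCm38.p6, 250 bases before to 50 after the start) were found for 4 of the 7 genes, Hmgcs1, Idi1, Dhcr7 with 3 starts and Srebf2, which gave 6 windows. Both strands were searched for TCACNCCAC, a sterol regulatory element-like motif, for CCAAT, bound by NF-Y, and for GGGCGG, bound by Sp1. Of 32851 promoters in the table, 1.24% held the first motif, 37.4% the second and 35.7% the third. The windows of Hmgcs1, the most abundant gene, and Srebf2, the regulator, are printed with the matches of either strand in capitals.
Hmgcs1, chr13:119690101-119690400 (+): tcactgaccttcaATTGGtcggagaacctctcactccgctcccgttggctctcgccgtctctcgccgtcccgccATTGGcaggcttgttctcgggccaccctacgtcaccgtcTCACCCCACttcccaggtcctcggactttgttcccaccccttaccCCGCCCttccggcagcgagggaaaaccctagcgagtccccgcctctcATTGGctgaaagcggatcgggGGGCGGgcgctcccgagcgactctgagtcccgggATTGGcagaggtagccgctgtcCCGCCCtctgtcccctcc
Srebf2, chr15:82147019-82147318 (+): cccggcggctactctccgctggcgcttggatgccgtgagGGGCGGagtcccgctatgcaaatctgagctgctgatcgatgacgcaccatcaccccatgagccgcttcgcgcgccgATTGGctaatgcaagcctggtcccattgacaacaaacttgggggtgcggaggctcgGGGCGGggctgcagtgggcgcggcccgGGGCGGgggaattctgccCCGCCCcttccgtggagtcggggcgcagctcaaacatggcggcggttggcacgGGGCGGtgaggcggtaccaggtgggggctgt
Hmgcs1 held 1 match to the sterol regulatory element-like motif, at -137 from the start, with 4 CCAAT boxes and 3 GC boxes around it, none of them overlapping. The deposited Hmgcs1 transcript begins downstream of this RefSeq window. Srebf2 held 1 CCAAT box at -135 and 5 GC boxes. Idi1 held 2 CCAAT boxes and 1 GC box, and of the 3 starts of Dhcr7 only the third held CCAAT boxes (2, with 3 GC boxes). The most abundant Idi1 transcript also begins downstream of its window, although the longest form begins inside it. The main Dhcr7 transcript begins outside all 3 windows. The first motif was found in 1 of the 6 windows, and the absence of these letters says nothing about binding.

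**Figure D5:**
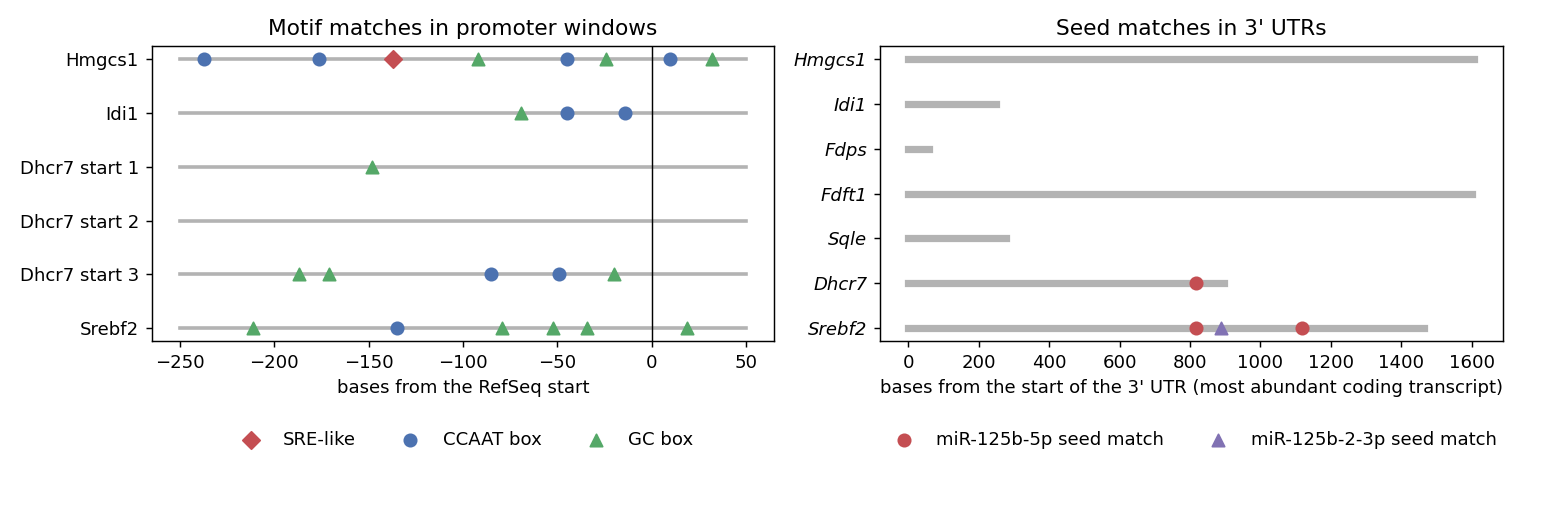
Left, positions of motif matches in the RefSeq promoter windows of 4 genes, in bases from the start (vertical line). Right, positions of miR-125b seed matches along the 3′UTR of the most abundant coding transcript of each of the 7 genes (grey bars, in bases), where 3 matches lie in Srebf2 and 1 in Dhcr7.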

How the data were processed

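RNA was depleted of ribosomal RNA and made into strand-specific libraries. The submitters' processing notes name bcl2fastq, Trimmomatic 0.36, HISAT2 2.1.0, Cuffdiff and GRCm38.p5. The authors deposited FPKM per Ensembl transcript for both libraries, with 1e-05 in place of 0. The version of Cuffdiff and its library normalization were not given in the sources used here. Deposited ratios, p-values, q-values and significance marks are the authors' own comparison and were not used, nor was their list of changed transcripts.

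Transcript FPKM were summed per gene, and log2 ratios took a pseudocount of 0.1 FPKM, which understates changes of low genes. No fold is printed against the floor, but a transcript at the floor in m-/p+ could count as decreased. GENCODE M21 (GRCm38) supplied the type, length and 3′UTR of each transcript. It held 99.6% of the transcript identifiers including all 32 of the 7 genes, and 97.2% of those found had the same start and end. The 7 genes and all lists were chosen with earlier results of these data known. All 7 are named, and of each other list the 2 highest and 2 lowest genes. Marker lists are given by summed FPKM over all listed genes and by median log2 ratios over those of at least 1 FPKM. The calculation was tested on data simulated from the wild-type library with known folds and no noise, which checks the arithmetic only. Python 3.11.15, numpy 2.4.6, pandas 2.3.3 and matplotlib 3.10.9 were used. Alternatives changed the pseudocount, scaling, minimum and transcripts summed.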

Additional observations from a re-analysis of the deposited data

How the results depend on the processing

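No paired analysis was possible because there was a single library of each genotype. Of 94 values recomputed under the alternatives, 81 stayed within a log2 shift of 0.1, or within 1.5-fold for counts. Scaling the libraries to the same FPKM sum, or centring on the median of all genes, shifted log2 ratios by 0.010 and 0.004. With the most abundant transcript only, an alternative chosen after seeing the data for the count, the log2 ratio of Idi1 was -0.30 and the number of genes more than 1.2-fold lower was 1. Of 49 alternative values for single genes this was the 1 that moved, but many of them could hardly have moved. Pseudocounts and scaling barely change genes at these levels. Genes with a single annotated transcript keep nearly the same value whichever transcripts are summed. The 81 values above include these. Weighting by transcript length, also chosen after seeing the data, moved none of the 7 genes by more than a log2 shift of 0.1. Idi1 came close to that limit, going from 0.046 to 0.144, so its value depended on how its transcripts were combined.

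The counts of transcripts depended on which library had to pass the minimum, and the shares over all transcripts moved with it (given in brackets, increased then decreased). With m-/p+ as that library, 4 transcripts were increased and 0 decreased (13.8% and 3.70%). When the mean of both had to pass, 2 were increased and 0 decreased (9.43% and 8.93%), and when each library had to pass 1 was increased and 0 decreased (4.72% and 4.17%). At 1 FPKM, 1 was increased and 0 decreased (1.57% and 7.24%), and at 5 FPKM 0 and 0 (0.310% and 1.95%). With no minimum, 2 were increased and 4 decreased of 24 (8.88% and 21.4%). Among protein-coding transcripts only, 1 was increased and 1 decreased of 13 (3.44% and 11.1%).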

Other observations

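Fatty acid synthesis, which SREBP factors also drive, was slightly higher in m-/p+ in 5 of 7 genes, with a median log2 ratio of 0.08, and none of the 7 differed by more than 1.2-fold. Acaca, acetyl-CoA carboxylase, had 39.2 FPKM in wild type and 46.1 FPKM in m-/p+ (log2 ratio 0.23), and Elovl6, a fatty acid elongase, had 14.6 and 16.3 FPKM (0.16). The desaturase genes were the lowest, Scd1 with 16.04 and 15.1 FPKM (-0.09) and Scd2, the main desaturase of brain, with 221.5 and 221.0 FPKM (-0.003).

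Farnesyl and geranylgeranyl diphosphate, the products of Fdps and the next synthase, also feed protein prenylation, ubiquinone and dolichol. Among 10 genes of these branches, all passed, 4 were higher and 6 lower, none by more than 1.2-fold, and the median log2 ratio was -0.01. Rabggta and Rabggtb, the subunits of the transferase that prenylates Rab proteins, stood at opposite ends, with 12.8 FPKM in wild type and 13.7 FPKM in m-/p+ (log2 ratio 0.10) and with 27.8 and 25.3 FPKM (-0.14), respectively. Fntb, the beta subunit of farnesyltransferase, had 8.48 and 8.79 FPKM (0.05), and Dhdds, which builds dolichol chains, had 12.3 and 11.5 FPKM (-0.09). Over all 6 lists, 59 of 61 genes passed, with 29 higher and 30 lower in m-/p+ and a median log2 ratio of -0.003.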
